A study of Mus musculus with 12 samples.

Results

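Metallothioneins and the genes that move zinc in and out of hepatocytes were followed in RNA-seq of sorted mouse hepatocytes. The set was chosen by name and holds 7 genes of the 54839 features measured, namely the metallothioneins Mt1 and Mt2, the transcription factor Mtf1, the exporters Slc30a1 and Slc30a10 and the importers Slc39a4 and Slc39a14. All 7 had counts in every library and all 7 were among the 17121 genes tested. The 12 libraries form 4 groups of 3, Tom- oil, Tom+ oil, Tom- CCl4 and Tom+ CCl4. All came from male p16-Tom mice on a C57BL/6 background, which are heterozygous for a tamoxifen-dependent Cre recombinase driven by p16Ink4a and for a Cre-dependent tdTomato reporter, and tamoxifen was part of the treatment. A cell was therefore red (Tom+) when it, or the cell it came from, expressed p16Ink4a at the time of tamoxifen, and Tom- cells served as the comparison from the same kind of mouse. The mice were injected repeatedly with corn oil alone or with CCl4, a solvent that damages the hepatocytes around the central vein, and live cells were sorted by flow cytometry. The age of the mice and the number of mice behind a library are not given in the sources used here.

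Zinc binds to many enzymes and transcription factors, and hepatocytes keep the free ion low. Metallothioneins are small cysteine-rich proteins that hold zinc, copper and cadmium. When free zinc rises, the zinc finger protein MTF-1 binds metal response elements in the promoters of metallothionein genes and of the exporter gene Slc30a1, and it raises their transcription. Inflammatory signals and glucocorticoids also raise metallothionein transcription in liver. Transporters of the Slc30 family lower cytosolic zinc, those of the Slc39 family raise it, and some members carry manganese or iron as well.

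The library totals ranged from 37568584 to 75331424 counts (median 47910752), and the lowest count of any of the 7 genes in a library was 715. Hepatocyte markers such as Alb and Apoa1 summed to between 96174 and 134249 TPM (a level per length, scaled to the library), so that the label of the cells fitted its markers. Markers of other liver cells were present at a low level, with sums of 13.5 to 244 TPM for Kupffer cells and macrophages, 36.0 to 103 TPM for endothelial cells, 2.17 to 29.2 TPM for stellate cells and fibroblasts and 5.30 to 24.0 TPM for cholangiocytes. The reporter transcript was between 1225 and 1546 CPM (counts scaled to library size, TMM-normalized) in 5 libraries labelled Tom+ and between 120 and 263 CPM in 5 labelled Tom-. It went against the label in 2 oil libraries: the library labelled Tom- oil 1 had 1793 CPM and the library labelled Tom+ oil 2 had 135 CPM. Values without both of them are therefore given for each gene for Tom+ against Tom- in oil, and beside the comparisons of CCl4 with oil over both fractions for Mt1, Mt2 and Slc39a4. Same-numbered Tom- and Tom+ libraries of a treatment deviated together from their group means, and they are treated as pairs where a value is called paired.

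Promoter sequences are shown for Mt1 and Mt2, because the levels of these neighbouring genes moved together across the libraries and because the metal response element is the known link from zinc to their transcription. Each window is the stretch of 250 bases before the RefSeq start of the gene on GRCm38.p6, plus strand, 5′ to 3′. The capitals mark the core of a metal response element, searched as TGCACNC or TGCGCNC on both strands. The Mt1 window lies at chr8:94178839-94179088 and the Mt2 window at chr8:94172368-94172617.
Mt1: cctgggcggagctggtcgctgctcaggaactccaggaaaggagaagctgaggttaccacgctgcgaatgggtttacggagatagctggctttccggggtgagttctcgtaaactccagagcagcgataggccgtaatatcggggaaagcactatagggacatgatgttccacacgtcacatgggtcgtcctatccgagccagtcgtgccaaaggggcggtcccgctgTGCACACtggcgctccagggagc
Mt2: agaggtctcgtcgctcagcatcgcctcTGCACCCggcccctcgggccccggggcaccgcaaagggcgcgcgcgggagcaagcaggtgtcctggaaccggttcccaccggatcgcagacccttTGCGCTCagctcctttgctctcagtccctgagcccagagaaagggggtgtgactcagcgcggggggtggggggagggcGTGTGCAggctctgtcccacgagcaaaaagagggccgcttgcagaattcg
The Mt2 window held 3 matches and the Mt1 window 1. Of the 32851 promoter windows of the same length, 21.4% held at least 1 match and 1.26% held 3 or more. The Mt1 gene has several annotated starts, and its window reaches 7 bases past the first of those in GENCODE vM21. The other Mt1 transcripts start 129 and 159 bases after the first, and that stretch of 159 bases held 4 further matches. Slc30a1 had 1 match in its window and Mtf1 had 0, which says only that these letters are not in those 250 bases. The Slc30a10 window had 3 matches, a pair of which overlap on opposite strands. The core of the antioxidant response element, TGACNNNGC, was found once in the windows of Mt2 and Slc30a1 and in 10.2% of all windows. RefSeq promoter entries were matched for 5 of the 7 genes, and none was used for Slc39a4 and Slc39a14.

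Per length, the metallothioneins had the highest levels of the set. Over the 12 libraries Mt1 had a mean of 181 TPM (range 108 to 394) and Mt2 of 128 TPM (range 50.8 to 317), and in every library Mt1 was above Mt2, by 1.17 to 2.17 times per length. Slc39a14 at 40.6 TPM (range 31.6 to 50.5), Slc39a4 at 37.04 TPM (range 22.1 to 62.8) and Slc30a10 at 35.0 TPM (range 27.6 to 41.8) followed, and the ranges of these 3 genes overlapped. Slc30a1 was lower, at 14.6 TPM (range 10.7 to 18.4), and Mtf1 was lowest, at 5.49 TPM (range 4.45 to 6.40). The ranges of Slc30a1 and Mtf1 overlapped neither each other nor those of the genes above them. The deposited length of Mt1 is 1246 bases, which equals its span on the genome with introns, so that its TPM is set low relative to Mt2 with 588 bases. The Mt2 counts leave out those of Gm45774, an overlapping antisense gene with 1.01 to 1.07 times the count of Mt2 in every library. The order of Mt1 and Mt2 per length therefore depends on how these reads were assigned. All other levels below are in CPM and compare libraries, not genes.

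**Figure D1:**
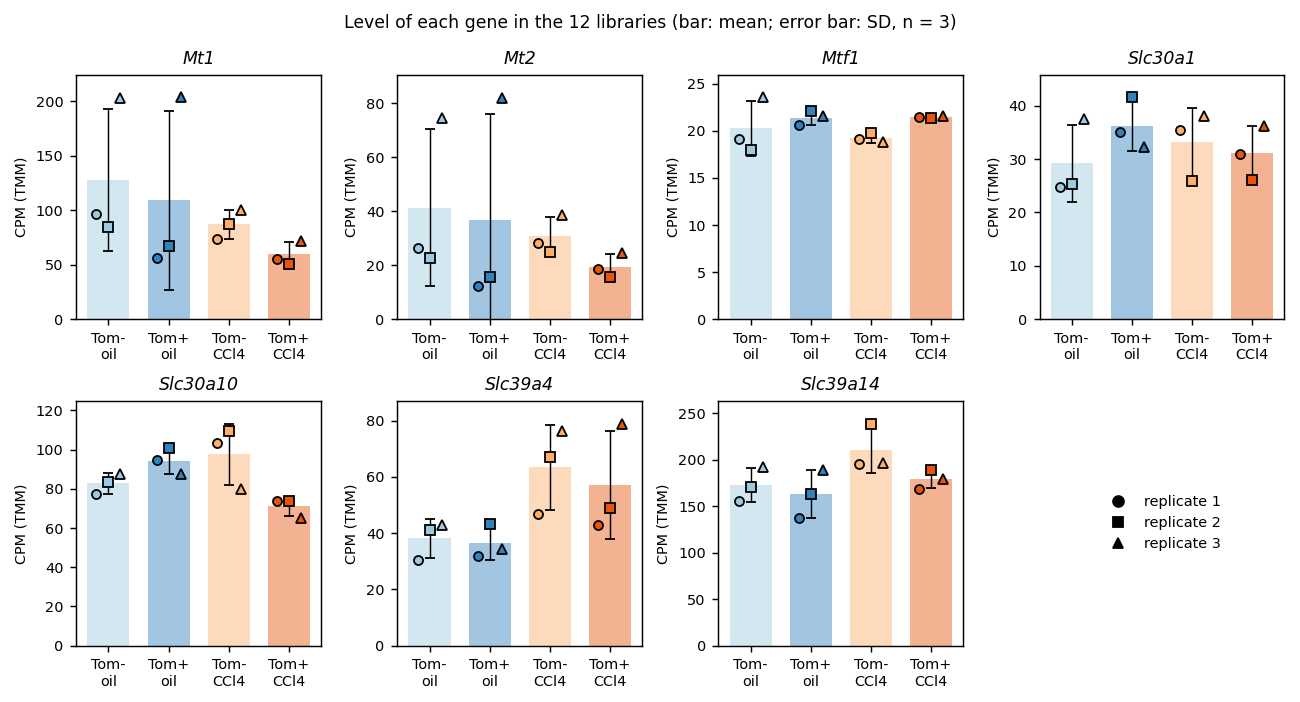
CPM (TMM-normalized, linear axis from 0) of the 7 genes in the 12 libraries, 1 panel per gene, with a bar for the mean and an error bar for the SD of 3 libraries, cut at 0 for Mt2 in Tom+ oil. Mt1 at 203 and 204 CPM and Mt2 at 74.7 and 82.1 CPM are highest in both oil libraries numbered 3, Mtf1 stays between 18.0 and 23.6 CPM, and Slc39a4 has its highest values in CCl4 libraries.

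None of the 7 genes was called in any comparison, a call being a Benjamini-Hochberg adjusted p under 0.05 over all genes with a log2 fold change beyond 0.75 in edgeR's quasi-likelihood test. For CCl4 against oil averaged over both fractions, 0 of 7 were called against 8.43% of all genes tested. For CCl4 against oil it was 0 of 7 against 7.92% in Tom- hepatocytes and 0 of 7 against 5.24% in Tom+ hepatocytes. For Tom+ against Tom-, 0 of 7 were called against 1.96% of genes in CCl4 and against 0% in oil, and for the difference between these comparisons (the interaction) 0 of 7 against 1.17%. At an unadjusted p under 0.05 the number of the 7 genes was 2 for each of the comparisons of CCl4 with oil (35% of all genes over both fractions, 31.5% in Tom- and 24.4% in Tom+), 1 for Tom+ against Tom- in CCl4 (22.8%), 0 in oil (7%) and 1 for the interaction (18.6%). DESeq2 and limma-voom called 0 of 7 in every comparison as well. With the replicate block, 0 of 7 were called against 3.98% of genes for Tom+ against Tom- in CCl4, 0.234% in oil and 5.48% for the interaction. At the adjusted p alone, Slc39a4 passed for CCl4 against oil in both fractions together, where 22% of genes passed. Slc30a10 passed for CCl4 against oil in Tom+, where 9.47% passed, and for Tom+ against Tom- in CCl4, where 5.79% passed.

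**Figure D2:**
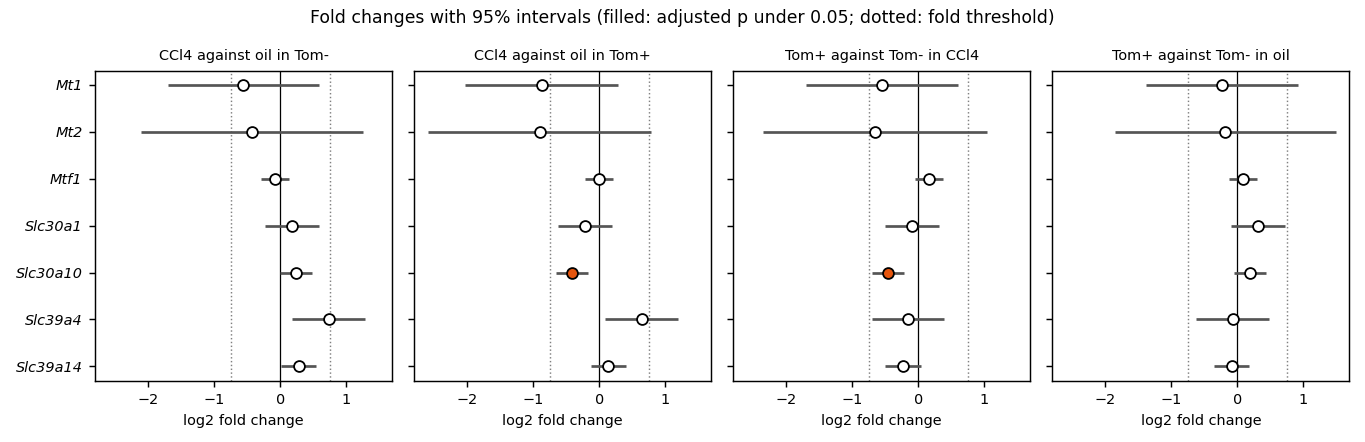
Log2 fold changes (edgeR) of the 7 genes with 95% confidence intervals in 4 comparisons, 1 panel each, with filled points for an adjusted p under 0.05 and dotted lines at the fold threshold of 0.75 in either direction. Slc30a10 has the filled points, at -0.41 for CCl4 against oil in Tom+ and at -0.46 for Tom+ against Tom- in CCl4, and the intervals of Mt1 and Mt2 are the widest.

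Mt1 (ENSMUSG00000031765, mm10 chr8:94179082-94180327, plus strand) had higher counts than Mt2 in these libraries, as deposited. Its level was 96.6, 84.9 and 203 CPM in Tom- oil replicates 1, 2 and 3, and 56.5, 67.6 and 204 CPM in Tom+ oil. It was 73.4, 87.8 and 100.1 CPM in Tom- CCl4 and 55.3, 51.2 and 72.3 CPM in Tom+ CCl4. Both oil libraries numbered 3 stood above all others, and the CCl4 groups overlapped the remaining oil libraries. Mt1 was 0.61-fold in CCl4 relative to oil over both fractions, a log2 fold change of -0.71 (SE 0.359, 95% CI -1.53 to 0.10, edgeR adjusted p = 0.191). Without the oil libraries whose reporter went against the label it was -0.92 (adjusted p = 0.159).

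Mt2 (ENSMUSG00000031762, mm10 chr8:94172664-94173568, plus strand) lies upstream of Mt1 and encodes a closely related protein. Its level was 26.5, 22.7 and 74.7 CPM in Tom- oil replicates 1, 2 and 3, and 12.3, 15.8 and 82.1 CPM in Tom+ oil. It was 28.2, 25.1 and 38.8 CPM in Tom- CCl4 and 18.6, 15.6 and 24.4 CPM in Tom+ CCl4. The same oil libraries as for Mt1 were highest, and the log2 fold change for CCl4 against oil over both fractions was -0.67 (SE 0.523, 95% CI -1.86 to 0.52, edgeR adjusted p = 0.407). Without the oil libraries whose reporter went against the label it was -0.96 (adjusted p = 0.285). The direction depended on the oil libraries numbered 3. Without both of them, a setting added once the levels had been seen, the log2 fold change of Mt2 was 0.40 (adjusted p = 0.094) and that of Mt1 was -0.06 (adjusted p = 0.759).

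Reads of Mt2 could not be separated from those of an antisense gene. Gm45774 lies on the opposite strand and covers 432 of the 588 exonic bases of Mt2 (73.5%), and its count was 1.01 to 1.07 times that of Mt2 in every library. The libraries were strand-specific, but the strand setting of the counting is not stated, so that the strand of these reads cannot be told apart. With the counts of both features summed, the log2 fold change over both fractions was -0.66 (adjusted p = 0.404), close to that of Mt2 alone. The count ratio of Mt1 to Mt2 lay between 2.48 and 4.60, and the log2 levels of the genes had a Pearson correlation of 0.956 over the 12 libraries, which share the depth and the 2 high oil libraries.

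Kupffer cell and macrophage markers were also higher in the oil pair numbered 3. The summed level of the 8 Kupffer cell and macrophage markers was 85.8 TPM in Tom- oil 3 and 118 TPM in Tom+ oil 3, against 13.5 to 30.8 TPM in the other oil libraries, and 0 of the 8 markers were at 0 counts in any library. Endothelial markers summed to 58.9 and 68.2 TPM in Tom- and Tom+ oil 3 against 36.0 to 60.3 TPM, stellate cell and fibroblast markers to 5.33 and 6.58 TPM against 2.17 to 4.25 TPM, and cholangiocyte markers to 6.91 and 5.30 TPM against 6.13 to 8.65 TPM. In CCl4 the macrophage sum was 105 to 123 TPM in Tom- and 79.7 to 244 TPM in Tom+. Mt1 and Mt2 together were at 178 to 308 TPM in the CCl4 libraries, at 701 TPM in Tom- oil 3 and at 689 TPM in Tom+ oil 3. The summed glucocorticoid receptor targets were 2353 and 2416 TPM in Tom- and Tom+ oil 3 against 1583 to 2170 TPM in the other oil libraries. The acute phase genes summed to 17090.5 and 14879 TPM against 10629 to 14790.2 TPM. Most of the glucocorticoid sum was Tat, with a mean of 1690 TPM over the 12 libraries against 4.60 to 66.5 TPM for the other targets. Most of the acute phase sum was Hp, Orm1 and Fgb, with means of 6344, 3395 and 2398 TPM. Both sums thus say little about the genes at a lower level in these lists. The early stress genes summed to 202 and 247 TPM against 172 to 188 TPM. The part of these signals in the level of Mt1 and Mt2 was not tested.

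**Figure D3:**
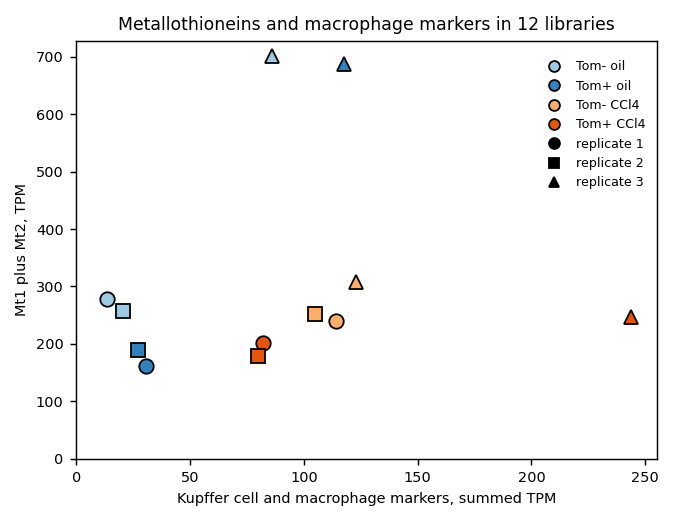
Summed TPM of Mt1 and Mt2 (vertical axis) against the summed TPM of 8 Kupffer cell and macrophage markers (horizontal axis) in the 12 libraries, coloured by group with the replicate number as symbol. Both oil libraries numbered 3 sit at 689 and 701 TPM on the vertical axis, and every other library is at or below 308 TPM. The highest marker sum is 244 TPM, in Tom+ CCl4 3.

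In CCl4 both metallothioneins were lower in Tom+ than in Tom- hepatocytes in 3 of 3 pairs, and the groups did not overlap, as was the case for 28.7% of all genes. In TPM the pairs kept this order but the groups overlapped. Mt1 was at 132 TPM in Tom- CCl4 1 and 143 TPM in Tom+ CCl4 3, and Mt2 at 95.1 TPM in Tom- CCl4 2 and 103 TPM in Tom+ CCl4 3. The log2 fold change of Mt1 was -0.55 (SE 0.507, edgeR adjusted p = 0.579) and that of Mt2 was -0.65 (SE 0.743, adjusted p = 0.658). The fit with the replicate block gave the same sizes with a smaller error. In it Mt1 was at -0.55 (SE 0.128, 95% CI -0.84 to -0.26, adjusted p = 0.0165) and Mt2 at -0.65 (SE 0.205, adjusted p = 0.0741), both short of the fold threshold. In that fit 17.7% of genes had an adjusted p under 0.05. Without the oil libraries numbered 3, which share the estimate of the spread, the unpaired value of Mt1 was -0.55 with an adjusted p of 0.0467.

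In oil the metallothioneins were lower in Tom+ in pairs 1 and 2 and slightly higher in pair 3. The log2 fold change of Tom+ against Tom- was -0.23 for Mt1 (95% CI -1.37 to 0.91, edgeR adjusted p = 0.951) and -0.18 for Mt2 (95% CI -1.85 to 1.49, adjusted p = 0.978). The intervals are wide and leave room for a change past the fold threshold in either direction. The pairs 1 and 2 hold the libraries whose reporter went against the label, and without those libraries the values were -0.16 for Mt1 and -0.07 for Mt2. Without the oil pair numbered 3 they were -0.55 for Mt1 (adjusted p = 0.254) and -0.81 for Mt2 (adjusted p = 0.223), and with the replicate block -0.36 (adjusted p = 0.235) and -0.48 (adjusted p = 0.347). In 2-sided exact permutation tests of 3 against 3 libraries, whose smallest p is 0.1, the summed TPM of Mt1 and Mt2 gave p = 0.5 for CCl4 against oil in Tom-, 0.9 in Tom+, 0.2 for Tom+ against Tom- in CCl4 and 0.5 in oil. The Mt1 to Mt2 ratio gave exact p = 0.2, 0.4, 0.6 and 0.6 in the same order.

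**Figure D4:**
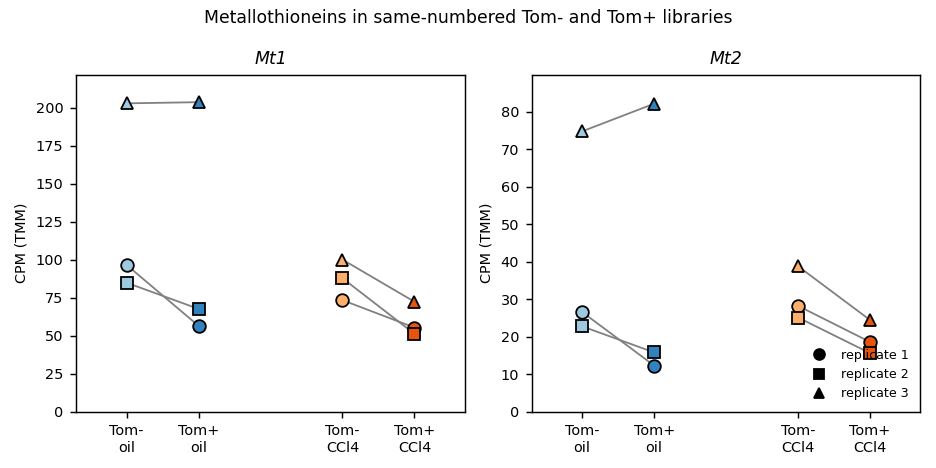
CPM (TMM-normalized, linear axis from 0) of Mt1 and Mt2 in same-numbered Tom- and Tom+ libraries, joined by grey lines, for oil and CCl4. All 3 lines run downward from Tom- to Tom+ in CCl4 for both genes, and in oil the pair numbered 3 lies far above the others at 203 and 204 CPM for Mt1.

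Mtf1 (ENSMUSG00000028890, mm10 chr4:124802104-124849800, plus strand), the zinc sensor, varied least of the set. It ranged from 18.0 to 23.6 CPM in Tom- oil, from 20.6 to 22.1 CPM in Tom+ oil, from 18.8 to 19.8 CPM in Tom- CCl4 and from 21.3 to 21.5 CPM in Tom+ CCl4. Its highest and lowest libraries differed by 1.31 times. For CCl4 against oil over both fractions its log2 fold change was -0.04 (95% CI -0.19 to 0.11, edgeR adjusted p = 0.753). Tom+ was above Tom- in 3 of 3 CCl4 pairs, by 0.16 (95% CI -0.06 to 0.37, adjusted p = 0.382), and the groups did not overlap, as for 28.7% of genes. In oil Tom+ against Tom- was 0.08 (adjusted p = 0.907), and 0.01 without the libraries whose reporter went against the label. Exons of 1110065P20Rik on the opposite strand cover 8.1% of Mtf1, and its count was 0.319 to 0.588 times that of Mtf1.

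Slc30a1 (ENSMUSG00000037434, mm10 chr1:191906767-191913247, plus strand) encodes the zinc exporter of the plasma membrane and is a known target of MTF-1. Its levels were 24.8, 25.3 and 37.5 CPM in Tom- oil replicates 1 to 3, and 35.0, 41.6 and 32.3 CPM in Tom+ oil. They were 35.4, 25.9 and 38.1 CPM in Tom- CCl4 and 31.0, 26.1 and 36.2 CPM in Tom+ CCl4. All 4 groups overlapped, and the oil libraries numbered 3 did not stand out together as they did for the metallothioneins. The log2 fold change for CCl4 against oil over both fractions was -0.02 (95% CI -0.31 to 0.27, edgeR adjusted p = 0.934). For Tom+ against Tom- it was -0.09 in CCl4 (95% CI -0.50 to 0.32, adjusted p = 0.821) and 0.31 in oil (95% CI -0.10 to 0.72, adjusted p = 0.786). The oil value was 0.08 (adjusted p = 0.996) without both libraries whose reporter went against the label, and 0.61 (adjusted p = 0.219) without the pair numbered 3. The Pearson correlation of Slc30a1 with Mt1 over the 12 libraries was 0.133.

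Slc30a10 (ENSMUSG00000026614, mm10 chr1:185454848-185468762, plus strand) belongs to the zinc transporter family and is known for exporting manganese. Its levels were 104, 109.5 and 80.1 CPM in Tom- CCl4 replicates 1 to 3, against 74.0, 73.9 and 65.2 CPM in Tom+ CCl4. Tom+ was lower in 3 of 3 pairs, and the groups did not overlap, as for 28.7% of genes. In TPM the pairs kept this order but the groups overlapped, with 29.0 TPM in Tom- CCl4 3 and 33.6 TPM in Tom+ CCl4 1. The log2 fold change was -0.46 (SE 0.112, 95% CI -0.70 to -0.22, edgeR adjusted p = 0.0316), which is short of the fold threshold, and with the replicate block -0.45 (SE 0.0775, adjusted p = 0.0017). The unpaired adjusted p ranged up to 0.153 when libraries were left out in turn, and leaving out any of 5 CCl4 libraries took it above 0.05. The exception was Tom- CCl4 3, without which it was 0.00905.

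In oil the order of the fractions was the opposite. Slc30a10 was at 77.1, 83.5 and 87.6 CPM in Tom- oil and at 94.7, 100.9 and 87.7 CPM in Tom+ oil. Tom+ was higher in all 3 pairs and the groups did not overlap, as for 11.7% of genes, but in pair 3 the levels were all but equal. In TPM pair 3 ran the other way, at 36.3 TPM in Tom- and 34.1 TPM in Tom+, and the groups overlapped. The log2 fold change was 0.19 (95% CI -0.05 to 0.43, edgeR adjusted p = 0.783), and it was 0.08 (adjusted p = 0.987) without the oil libraries whose reporter went against the label. The difference between CCl4 and oil was -0.65 (SE 0.158, 95% CI -0.99 to -0.31), with an adjusted p of 0.0581 and of 0.00274 with the replicate block, a fit in which 12.5% of genes had an adjusted p under 0.05. Without both libraries whose reporter went against the label it was -0.55 (adjusted p = 0.2).

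CCl4 also went with a lower Slc30a10 level in Tom+ than oil did. In Tom+ the CCl4 libraries lay below all oil libraries, as 29.3% of genes did not overlap there, with a log2 fold change of -0.41 (SE 0.112, edgeR adjusted p = 0.0344). Without the oil libraries whose reporter went against the label it was -0.35 (adjusted p = 0.142). Leaving out any single Tom+ library other than Tom+ oil 3 took the adjusted p above 0.05, up to 0.146 without Tom+ CCl4 3. In Tom- the log2 fold change was 0.24 (95% CI -0.00044 to 0.48, adjusted p = 0.16). Over both fractions the opposite values left -0.09 (adjusted p = 0.475). In CCl4 the Tom+ libraries also had more zone 3 marker RNA, of hepatocytes around the central vein, at 3532 to 4483 TPM against 1316 to 2059 TPM in Tom-. They had less zone 1 marker RNA, at 3908 to 5320 TPM against 5485 to 7247 TPM. Most of the zone 3 sum was Cyp2e1, with a mean of 1911 TPM over the 12 libraries. For Tom+ against Tom- in CCl4, 0 of 6 zone 3 markers were called and 3 of 6 zone 1 markers were called lower, against 1.96% of all genes called in either direction. The part of these zone markers in the level of any of the 7 genes was not tested, and in bulk samples fewer cells of a type and less RNA per cell cannot be told apart.

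**Figure D5:**
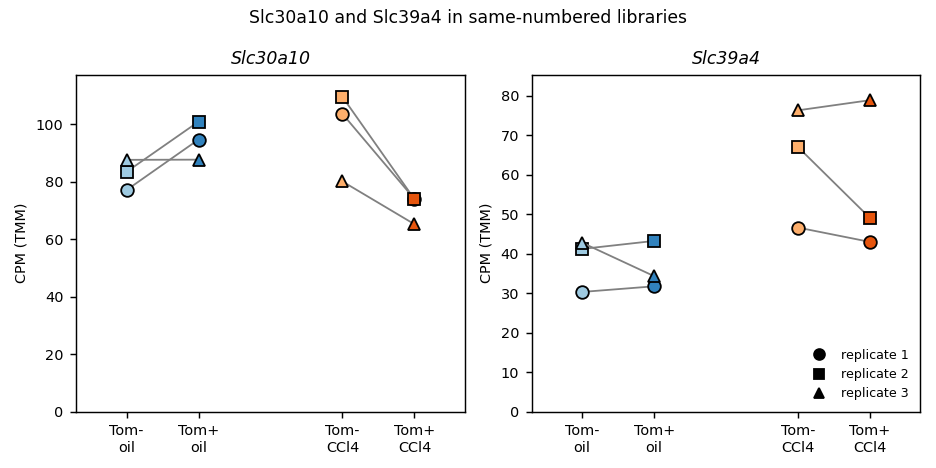
CPM (TMM-normalized, linear axis from 0) of Slc30a10 and Slc39a4 in same-numbered Tom- and Tom+ libraries, joined by grey lines. Slc30a10 is lower in Tom+ in all 3 CCl4 pairs and is level or higher in oil, while Slc39a4 is between 43.0 and 78.9 CPM in CCl4 and between 30.3 and 43.3 CPM in oil.

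Slc39a4 (ENSMUSG00000063354, mm10 chr15:76612383-76617384, minus strand) encodes ZIP4, a zinc importer best known from the intestine. Its levels were 30.3, 41.2 and 42.8 CPM in Tom- oil replicates 1 to 3, and 31.8, 43.3 and 34.3 CPM in Tom+ oil. They were 46.7, 67.0 and 76.4 CPM in Tom- CCl4 and 43.0, 49.1 and 78.9 CPM in Tom+ CCl4. In Tom- every CCl4 library was above every oil library, as 36% of genes did not overlap there, and in Tom+ only CCl4 1 at 43.0 CPM lay under an oil library, the one labelled Tom+ oil 2 at 43.3 CPM. Over both fractions Slc39a4 was 1.61-fold in CCl4 relative to oil, a log2 fold change of 0.69 (SE 0.177, 95% CI 0.30 to 1.08, edgeR adjusted p = 0.0191). Without the oil libraries whose reporter went against the label it was 0.69 (adjusted p = 0.042).

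Its size lay just under the fold threshold, and the gene was called when Tom+ oil 2, Tom- CCl4 1 or Tom+ CCl4 1 was left out, at log2 fold changes of 0.76, 0.78 and 0.77. With the counts of same-numbered Tom- and Tom+ libraries summed, so that 3 values stood against 3, it was 0.66 with an adjusted p of 0.107. The adjusted p was also above 0.05 without Tom+ oil 1, at 0.0504, and without both oil libraries numbered 3, at 0.0575. In Tom- alone the log2 fold change was 0.73 (adjusted p = 0.0717) and in Tom+ alone 0.64 (adjusted p = 0.142). With the replicate number as block these were 0.72 (adjusted p = 0.00521) and 0.61 (adjusted p = 0.0168), although oil and CCl4 libraries share only that number. The Tom+ value was 0.34 (adjusted p = 0.466) without Tom+ CCl4 3. Tom+ against Tom- was -0.15 in CCl4 (95% CI -0.70 to 0.40, adjusted p = 0.765) and -0.07 in oil (95% CI -0.62 to 0.49, adjusted p = 0.975), and the fractions overlapped in both treatments. The CCl4 value moved to -0.46 (adjusted p = 0.244) without Tom+ CCl4 3 and to 0.00 (adjusted p = 0.997) without Tom- CCl4 3. The oil value was -0.36 (adjusted p = 0.923) without both libraries whose reporter went against the label.

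Slc39a14 (ENSMUSG00000022094, mm10 chr14:70303469-70351425, minus strand) encodes ZIP14, which takes zinc, iron and manganese into hepatocytes and is known to respond to inflammatory signals. Its levels were 156, 171 and 193 CPM in Tom- oil replicates 1 to 3, and 137, 164 and 189 CPM in Tom+ oil. They were 195, 239 and 197 CPM in Tom- CCl4 and 169, 189 and 179.5 CPM in Tom+ CCl4. In Tom- the treatments did not overlap, by a margin of a few CPM, as for 36% of genes, and in Tom+ they did overlap. In TPM they overlapped in Tom- and not in Tom+. CCl4 against oil over both fractions gave a log2 fold change of 0.21 (SE 0.0878, 95% CI 0.02 to 0.40, edgeR adjusted p = 0.108), and 0.31 (adjusted p = 0.0231) without the oil libraries numbered 3. Tom+ was lower than Tom- in 3 of 3 pairs in CCl4, without overlap, as for 28.7% of genes, at -0.23 (SE 0.124, adjusted p = 0.289), and with the replicate block at -0.23 (SE 0.067, adjusted p = 0.0331). In TPM this order did not hold. Tom+ was lower in CCl4 pair 2 alone, and the CCl4 group means were 43.8 TPM in Tom- and 43.9 TPM in Tom+. Tom+ was also lower in 3 of 3 pairs in oil, at -0.09 (95% CI -0.35 to 0.18, adjusted p = 0.918), with groups that overlapped, and at -0.17 (adjusted p = 0.939) without the libraries whose reporter went against the label.

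The wider zinc family was counted from a list of 22 other transporters and metallothioneins, of which 17 were tested. Mt3 and Mt4, the metallothioneins of brain and of stratified epithelia, had 0 counts in every library. For CCl4 against oil over both fractions, 2 of the 17 were called higher and 0 lower, against 6.17% and 2.26% of all genes tested, and the median log2 fold change of the list was -0.01 against 0.00 for all genes. The called genes were the importers Slc39a5 and Slc39a2, both at a low level. Slc39a5 was 0.51 ± 0.23 TPM in Tom- oil and 0.24 ± 0.081 TPM in Tom+ oil, against 1.21 ± 0.53 TPM in Tom- CCl4 and 1.75 ± 0.67 TPM in Tom+ CCl4 (SD, n = 3 each). It rose by 2.01 on the log2 scale over both fractions (SE 0.336, edgeR adjusted p = 0.00122) and by 2.67 in Tom+ (adjusted p = 0.00448). Slc39a2 was 0.51 ± 0.24 and 0.52 ± 0.20 TPM in Tom- and Tom+ oil, against 1.33 ± 0.43 and 0.83 ± 0.16 TPM in Tom- and Tom+ CCl4. It rose by 1.02 over both fractions (SE 0.28, adjusted p = 0.0199) and by 1.49 in Tom- (adjusted p = 0.0224). The adjusted p in the other fraction was 0.0637 for Slc39a5 in Tom- and 0.437 for Slc39a2 in Tom+, and the interactions gave 0.308 and 0.39. The values over both fractions count same-numbered Tom- and Tom+ libraries as separate, so their p-values may be too small. The fit with these libraries summed is not given for Slc39a5 and Slc39a2. Over all genes it called 592 higher and 256 lower, against 1057 and 387. Markers of other cells and zones moved beside these genes. In the same comparison over both fractions 7 of 8 stellate cell and fibroblast markers, 2 of 6 endothelial markers, 1 of 8 macrophage markers and 3 of 6 zone 3 markers were called higher, and 3 of 6 zone 1 markers were called lower. The summed stellate cell and fibroblast markers were 2.17 to 6.58 TPM in oil and 13.9 to 29.2 TPM in CCl4. In Tom- alone 6 of 6 endothelial and 6 of 8 stellate cell and fibroblast markers were called higher, and in Tom+ alone 0 of 6 and 5 of 8. The part of these markers in the levels of Slc39a5 and Slc39a2 was not tested.

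Within the list of other zinc transporters, the genes with the highest levels moved little. Slc39a1, an importer of the plasma membrane, had a mean of 86.6 TPM (range 74.0 to 95.4) and log2 fold changes within 0.05 of 0 in all 6 comparisons. Slc39a7, which releases zinc from the endoplasmic reticulum, was at 49.3 TPM, Slc39a11 at 24.8 TPM, Slc39a9 at 14.6 TPM and Slc30a5, a transporter of the secretory pathway, at 10.9 TPM, and none of these had an adjusted p under 0.05 in a comparison. Slc39a8, encoding ZIP8, the relative of ZIP14 that also carries manganese, was at 11.3 TPM. It was lower in Tom+ than in Tom- in CCl4 by a log2 fold change of -0.34 (SE 0.0892, edgeR adjusted p = 0.0411) and in CCl4 than in oil within Tom+ at -0.36 (adjusted p = 0.0217), both short of the fold threshold, the directions that Slc30a10 had in these comparisons, which share the Tom+ CCl4 libraries. For Tom+ against Tom-, 0 of the 17 genes were called in CCl4, in oil or in the interaction by edgeR, against 1.96%, 0% and 1.17% of all genes. At an unadjusted p under 0.05 there were 5, 0 and 4, where 22.8%, 7% and 18.6% of all genes were.

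Of 10 genes for copper and manganese handling, all tested, 0 were called by edgeR in any comparison. At an unadjusted p under 0.05 there were 7 for CCl4 against oil over both fractions, 4 in Tom-, 3 in Tom+, 2 for Tom+ against Tom- in CCl4, 1 in oil and 1 for the interaction. The shares of all genes at an unadjusted p under 0.05 were 35%, 31.5%, 24.4%, 22.8%, 7% and 18.6% in that order, and those of all genes called were 8.43%, 7.92%, 5.24%, 1.96%, 0% and 1.17%. Within this list Cp, the copper-carrying ferroxidase ceruloplasmin, had a mean of 390.4 TPM and a log2 fold change of 0.40 for CCl4 against oil over both fractions (adjusted p = 0.0173). Atp7b, the copper pump of hepatocytes, was at 13.6 TPM and -0.62 for CCl4 against oil in Tom+ (adjusted p = 0.0466). Ccs, the copper chaperone of superoxide dismutase, was at 270.0 TPM and -0.37 in Tom- (adjusted p = 0.00556). In Tom+ its means were 115 CPM in oil and 121 CPM in CCl4. Each of these 3 is shown where its adjusted p was under 0.05. Of the 10 genes 2 passed over both fractions (22% of all genes) and 2 in Tom+ (9.47%). In Tom- 1 passed, with 1605 of 17121 genes higher and 1156 lower. Also at 10 TPM or more were Slc31a1 (107.6 TPM), Atox1 (163 TPM), Slc11a2 (14.7 TPM) and Atp2c1 (11.1 TPM).

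Lists of other signals known to act on metallothionein genes were counted beside them for CCl4 against oil over both fractions. Of 8 acute phase genes 2 were called lower, the near-identical Saa1 and Saa2, whose reads the counting may have split. Of 10 early stress genes 1 was called higher, Fosb, which was at a low level, with a mean of 0.105 TPM and counts of 0 to 40. These 3 are named after their values were seen. Of 7 glucocorticoid receptor targets 0 were called by edgeR, with 4 at an unadjusted p under 0.05. Of all genes 6.17% were called higher and 2.26% lower in this comparison, and 35% had an unadjusted p under 0.05. The median log2 fold changes were -0.47, 0.19 and 0.24, against 0.00 for all genes.

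The genes whose log2 level was most like that of each member over the 12 libraries, among 13060 others with a mean of at least 1 CPM, are given as a description. They were Gm45774, Mt2 and Gpr17 for Mt1 (Pearson correlations of 0.958, 0.956 and 0.944) and Gm45774, Mt1 and Rab30 for Mt2 (0.9997, 0.956 and 0.951). For Slc39a4 they were Man2a2, Tmem53 and Ctsd (0.982, 0.966 and 0.950), and for Slc39a14 Hnrnpl, Per1 and Safb (0.982, 0.937 and 0.936). For Slc30a10 they were Cutal, Stra6l and Cdh1 (0.949, 0.938 and 0.937), for Slc30a1 Adar, Gm17334 and Gm5113 (0.895, 0.884 and 0.881), and for Mtf1 Gm17036, Gm26718 and Klhdc8a (0.885, 0.865 and 0.855). No member other than Mt1 and Mt2 was in another member's list, and between members the next highest correlation was that of Slc39a4 with Slc39a14, at 0.640. The libraries share groups, pairs and depth, so these values are no measure of replicates.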

How the data were processed

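Each library was assigned to its group and replicate number from the labels. Per the submitters' processing notes, the authors used fastp (v0.23.2) on the reads and HISAT2 (v2.1.0) for alignment, with mm10 as the genome. The counting program and its strand setting are not given in the sources used here. The deposited values are expected counts per feature, not normalized, and 30.4% to 32.9% of the non-zero values in a library were not whole, so they were rounded to whole numbers, whereas the design had assumed whole counts. Of 54839 features 54723 (99.8%) were matched to a symbol.

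edgeR (v4.0.16) in R (v4.3.3) was used with TMM normalization, filterByExpr and the robust quasi-likelihood test, in 1 fit of the 12 libraries with a coefficient per group. TPM was computed from the rounded counts and the deposited lengths. Pair orders and overlaps between groups are those of TMM-normalized CPM unless TPM is named. The members, lists and tests were chosen with earlier results of these data known. Named are the 7 members, the 3 genes most like each, and genes of the zinc, copper and manganese lists that were called or had a mean of at least 10 TPM. The comparisons shown for Cp, Atp7b, Ccs and Slc39a8 have an adjusted p under 0.05. The other lists are given by counts and sums, with a few of their genes named. The sources do not say that replicates are separate mice, so p-values measure only the spread between these libraries, which may be technical. At these depths 3 counts equal 0.0369 to 0.0829 CPM, a floor for counting error only.

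Deviations from group means were correlated at 0.353 to 0.613 in all 6 same-numbered Tom- and Tom+ pairs over 13061 genes. The pairing thus comes from the numbers in the labels with this check, and blocked values are given where they change a call. Alternatives were DESeq2 (v1.42.0), limma-voom (limma v3.58.1), edgeR on the libraries compared, other normalizations and filters, the adjusted p alone, the replicate block, summed pairs and leaving out libraries. The tests were tested on simulated data. Figures were drawn with Python and matplotlib.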

Additional observations from a re-analysis of the deposited data

Results flagged for a closer look

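For Slc30a10 the pairs of Tom- and Tom+ libraries ran in opposite directions in the treatments in TMM-normalized CPM. Tom+ was below Tom- in 3 of 3 CCl4 pairs and above it in 3 of 3 oil pairs. The difference of the log2 fold changes was -0.65 (edgeR adjusted p = 0.0581, and 0.00274 with the replicate block). Without both oil libraries whose reporter went against the label the difference was -0.55 (adjusted p = 0.2) and the oil value 0.08 (adjusted p = 0.987). In oil pair 3 the levels of Tom- and Tom+ were 87.6 and 87.7 CPM but 36.3 and 34.1 TPM, so that the order in this pair depended on the unit. Oil pairs 1 and 2 each hold a library whose reporter went against its label, so that the reporter separated the fractions as labelled in oil pair 3 alone. The 6 zone 3 markers also had medians of opposite sign for Tom+ against Tom-, at 1.42 in CCl4 and -1.09 in oil. Their part in the level of Slc30a10 was not tested.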

How the results depend on the processing

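In 136 of 149 alternative counts the number of the 7 genes called was 0, as reported, including every comparison with the replicate block alone, where it stayed 0. With the adjusted p alone it was 1 for CCl4 against oil over both fractions, 1 in Tom+ and 1 for Tom+ against Tom- in CCl4. With the replicate block and the adjusted p alone together, added once the data had been seen, it was 2 over both fractions (27.9% of all genes), 1 in Tom- (22.1%), 2 in Tom+ (14.4%), 3 for Tom+ against Tom- in CCl4 and 1 for the interaction. Leaving out each library in turn gave 0 to 1 over both fractions, 0 to 1 in Tom- and 0 to 1 for the interaction, where without Tom- CCl4 3 the call was Slc30a10 at -0.78 (adjusted p = 0.0148). In Tom- it was Slc39a4 without Tom- CCl4 1. For CCl4 against oil the block is the replicate number, and same-numbered oil and CCl4 libraries were correlated at only 0.0317 to 0.299, so there the samples share only a number. In that fit Slc39a14 over both fractions had an adjusted p of 0.0381, whereas with same-numbered libraries summed it was at 0.19 (adjusted p = 0.335). Of 959 alternative log2 fold changes 46 had the other sign, none of them called, and 5 were called. Groups of 3 libraries limit the precision for Mt1 and Mt2 more than depth does, since every count was at least 715. Over all genes, Tom+ against Tom- in CCl4 had 336 calls, 682 with the replicate block and 61 higher and 477 lower by DESeq2. In oil these were 0, 40, and 6 higher and 11 lower, and for the interaction 201, 938, and 111 higher and 472 lower.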
